A study of Mus musculus with 10 samples.

Results

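The IGKV10 and IGKV12 families are groups of related variable gene segments of the mouse immunoglobulin κ light-chain locus (*Igk*). The 10 genes described here are IGKV10-94, IGKV10-95 and IGKV10-96 of the first family and IGKV12-38, IGKV12-40, IGKV12-41, IGKV12-44, IGKV12-46, IGKV12-89 and IGKV12-98 of the second. They were taken by name, and a clonotype was counted to a gene only where that gene was the sole V gene listed for it. Besides these 10, the *Igk* tables list 93 other *Igkv* genes alone, and the 10 hold 4384 of the 44103 clonotypes. A clonotype is 1 row of a deposited table, that is a V gene, a J gene and the amino acid sequence of their junction, with the number of reads that carried it. Left out by this rule were 7 clonotypes of IGKV12-47 and the clonotypes listed with a further gene, of which IGKV10-96 with its *Mus spretus* counterpart was the most frequent, at 47.

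These libraries bear on 1 of the study's questions, namely whether B-1a cells differ when the surrogate light chain, and with it a pre-BCR, is missing. *Igk* rearrangements were amplified from genomic DNA of sorted peritoneal cavity cells of C57BL/6 mice aged 6 to 8 weeks, and products of 100 to 280 bp were sequenced. There were 3 groups of 2 libraries each, namely B-1a cells of wild-type mice (WT B-1a), B-1a cells of *Igll1* knockout mice (Igll1-/- B-1a) and B-2 cells of wild-type mice (WT B-2). *Igll1* encodes λ5, a part of that chain, and the knockout mice lack it in every cell. CD5 was a gate of the B-1a cells only, according to the study's legends.

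A κ light chain is made when 1 V gene is joined to 1 J gene, and the junction becomes the third complementarity-determining region (CDR3), a loop that contacts antigen. Most of the CDR3 of a κ chain is encoded by the V gene, and the last residues come from the J gene or are formed at the join. B-1a cells are innate-like cells of the body cavities with a restricted set of receptors, whereas B-2 cells are the conventional population. IGKV10-96 is the V gene of a classical family of antibodies to the hapten arsonate, and IGKV12-41 that of a much studied antibody to lysozyme.

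The V gene of origin can be read in the CDR3 itself, and the sequences below are shown because their first 7 residues, called the stem here, come with the V gene. Each line gives the 9-residue CDR3 that the gene formed with IGKJ5, all of which were found in each of the 6 libraries.
IGKV10-94: QQYSKLPLT
IGKV10-95: QQYSKLPLT
IGKV10-96: QQGNTLPLT
IGKV12-38: KQAYDVPLT
IGKV12-40: QHYYGTPLT
IGKV12-41: QHFWSTPLT
IGKV12-44: QHHYGTPLT
IGKV12-46: QHFWGTPLT
IGKV12-89: QNVLSTPLT
IGKV12-98: QQLYSTPLT

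The stem of IGKV10-94 and IGKV10-95 was the same, so their CDR3 does not tell them apart, whereas the most frequent stems of the other 8 genes differed from each other. A stem was not always listed under its gene alone, as QHFWSTPLT with IGKJ5, the form of IGKV12-41, was also listed under IGKV12-46 with 1 to 15 reads in each library. It is 1 residue from QHFWGTPLT, the form of IGKV12-46, which had 436 to 2108 reads. Whether those few reads are errors was not tested. Over the 6 libraries, a 9-residue CDR3 with the gene's stem carried between 72.0% of the productive reads in IGKV10-95 and 92.6% in IGKV12-40. Productive means in frame and without a stop codon. The 9-residue CDR3 most often ended in WT or RT with IGKJ1, in YT with IGKJ2 and in LT or PT with IGKJ5.

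The libraries held 5701 to 8652 clonotypes from 214000 to 288396 reads, and in each of them 57.7% to 59.2% of the clonotypes had a single read. The smallest share that 3 clonotypes can show was 0.0347% to 0.0526%. No molecular barcode was used, so reads mix cells with PCR copies, and all intervals cover counting error only. The V primer was degenerate and primers were added for some B-1a-biased segments, so that a share of a gene also depends on its primer, and levels of different genes are compared only as shares of clonotypes in the tables. The replicates of each group varied beyond counting error and were kept apart. The chi-square on 83 degrees of freedom was 278 in WT B-1a, 754 in Igll1-/- B-1a and 135 in WT B-2. The knockout libraries thus differed most from each other, whereas the edgeR tests below share 1 estimate of the spread over all groups. The sort was checked on 2 light-chain genes of phosphatidylcholine-binding B-1a receptors. IGKV4-91 had 6.03% and 6.54% of the clonotypes in WT B-1a, 2.77% and 3.17% in Igll1-/- B-1a, and 1.30% and 1.44% in WT B-2. IGKV14-126 had 4.89% and 5.29% in WT B-1a and 1.47% and 1.65% in WT B-2, but 0.684% and 0.735% in Igll1-/- B-1a, so this gene was lower in the knockout B-1a cells than in B-2 cells (log2 fold change -1.14, adjusted p = 0.0030 by edgeR), against its use as a B-1a marker.

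Together the 3 IGKV10 genes had 3.79% and 4.55% of the clonotypes in WT B-1a, 4.81% and 3.96% in Igll1-/- B-1a, and 4.32% and 4.53% in WT B-2. The groups overlapped, with means of 4.17% ± 0.54, 4.38% ± 0.60 and 4.43% ± 0.15 (SD, n = 2) in that order. By reads they did not all overlap, as the family had 3.50% and 4.07% in WT B-1a, 5.30% and 4.81% in Igll1-/- B-1a, and 4.002% and 4.61% in WT B-2, with both knockout libraries above the 4 others. A different single clonotype was large in each knockout library. QQGNTLWT of IGKV10-96 with IGKJ1 held 1.80% of the reads of replicate 1 and 0.0102% of replicate 2. QQYSKLPYT of IGKV10-94 with IGKJ2 held 0.127% and 1.58%. Their part in the family's share of reads was not tested. The 7 IGKV12 genes had 5.61% and 5.53% in WT B-1a, 3.70% and 4.64% in Igll1-/- B-1a, and 6.23% and 7.16% in WT B-2. These did not overlap between groups, with the lowest values in Igll1-/- B-1a, where the family had 4.17% ± 0.66 against 5.57% ± 0.06 in WT B-1a and 6.70% ± 0.66 in WT B-2 (SD, n = 2). Most *Igkv* genes shifted the same way by edgeR. Of the 84 tested, 61.9% were lower in Igll1-/- than in WT B-1a, and 72.6% lower than in WT B-2. In WT B-1a, 70.2% were lower than in WT B-2. Within the family, IGKV12-38, IGKV12-46 and IGKV12-98 were higher in Igll1-/- than in WT B-1a, and the other genes were lower. An exact permutation test of 2 libraries against 2 cannot give a p-value under 0.333, so none is given for the families.

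**Figure D1:**
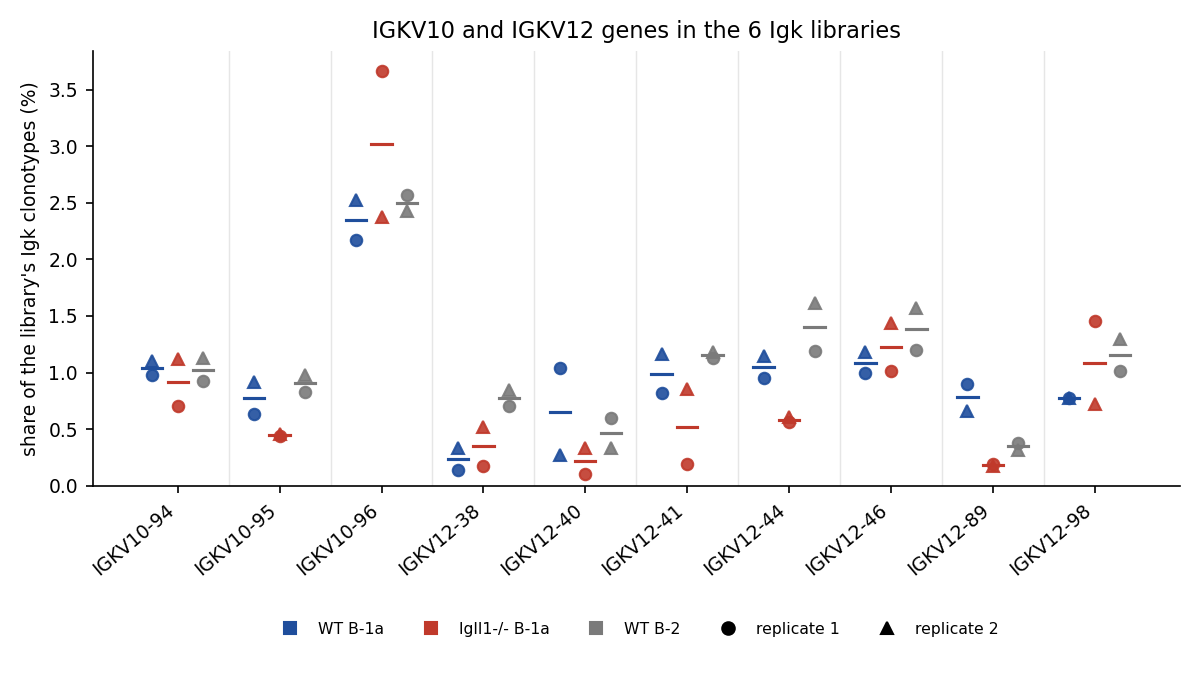
Share of the Igk clonotypes of a library (%, vertical axis) for each of the 10 genes in the 6 libraries; colours are groups, circles and triangles are replicates 1 and 2, and bars are means of 2 libraries. IGKV10-96 lies above the other genes in each library, and both Igll1-/- B-1a points of IGKV12-89 and of IGKV12-44 lie below the points of the other groups.

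IGKV10-96 was the most frequent of the 10 genes in each library and ranked between 5 and 12 among the genes found there. It made up 2.17% and 2.53% of the clonotypes in WT B-1a, 3.67% and 2.38% in Igll1-/- B-1a, and 2.57% and 2.43% in WT B-2. Only replicate 1 of Igll1-/- B-1a stood apart from the others. By means, IGKV10-96 was followed in WT B-1a by IGKV12-46 with 1.09% ± 0.13, IGKV12-44 with 1.05% ± 0.14 and IGKV10-94 with 1.04% ± 0.09 (SD, n = 2), which lie within their spread of each other. In Igll1-/- B-1a the next genes were IGKV12-46 with 1.23% ± 0.30, IGKV12-98 with 1.09% ± 0.52 and IGKV10-94 with 0.913% ± 0.299, again within their spread. In WT B-2 they were IGKV12-44 with 1.40% ± 0.30 and IGKV12-46 with 1.38% ± 0.26. The least frequent gene was IGKV12-38 in WT B-1a, at 0.234% ± 0.136, IGKV12-89 in Igll1-/- B-1a, at 0.183% ± 0.014, and IGKV12-89 again in WT B-2, at 0.347% ± 0.048 (SD, n = 2). IGKV12-89 and IGKV12-40, at 0.218% ± 0.160, lay within their spread in Igll1-/- B-1a.

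To ask which genes were used differently without the surrogate light chain, clonotypes per gene were tested over 84 *Igkv* genes by quasi-likelihood in edgeR, and a gene was called at a Benjamini-Hochberg adjusted p-value under 0.05. Of the 10 genes, 1 was called between Igll1-/- B-1a and WT B-1a, where 17.9% of all genes tested were called, and 9.52% were called as lower. This was IGKV12-89, with 0.899% and 0.661% of the clonotypes in WT B-1a against 0.193% and 0.173% in Igll1-/- B-1a, that is 65 and 46 clonotypes against 11 and 12. The groups did not overlap, and the share was 4.25-fold lower in the knockout cells (log2 fold change -2.09 with a standard error (SE) of 0.45, adjusted p = 0.0084 by edgeR). It was lower by reads as well, at 0.0724% and 0.0408% against 0.481% and 0.387%. WT B-2 cells lay between them, at 0.381% and 0.313%, and neither difference of the B-2 cells passed (edgeR adjusted p = 0.133 against WT B-1a and 0.160 against Igll1-/- B-1a).

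The call of IGKV12-89 was kept in 17 of 18 alternatives in which the gene could be tested, where the log2 fold change ran from -2.94 to -1.39. It was lost only when the 4 libraries of 1 naming series were used, at -1.85 (edgeR adjusted p = 0.153), an alternative chosen after the data were seen, with 1 library in each wild-type group. When each clonotype was merged into one of 10 or more times its reads that differed by 1 residue, 24 and 13 clonotypes were left in WT B-1a against 6 and 6 in Igll1-/- B-1a, which gave the smallest change. With at least 10 reads per clonotype, or with unproductive clonotypes only, IGKV12-89 had too few clonotypes to be tested. At least 10 reads were carried by 9 and 5 of its clonotypes in WT B-1a and 3 and 3 in Igll1-/- B-1a. Single reads made up 42 of 65 and 33 of 46 of its clonotypes in WT B-1a. In Igll1-/- B-1a they made up 6 of 11 and 8 of 12.

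IGKV12-44 was the 1 gene of the 10 called between Igll1-/- B-1a and WT B-2, where 22.6% of all genes tested were called and 15.5% as lower. It had 0.561% and 0.605% of the clonotypes in Igll1-/- B-1a, 1.19% and 1.61% in WT B-2, and 0.954% and 1.15% in WT B-1a. The knockout libraries lay below all 4 others. Against WT B-2 the log2 fold change was -1.26 (SE 0.36, adjusted p = 0.032 by edgeR), and against WT B-1a it was -0.85 (SE 0.37, adjusted p = 0.146 by edgeR). The call against WT B-2 was kept in only 8 of 19 alternatives. It was lost with TMM scaling (-0.80, edgeR adjusted p = 0.143), with DESeq2 (-0.73, adjusted p = 0.310), by reads (-1.43, edgeR adjusted p = 0.056), without either WT B-1a or either WT B-2 library (edgeR adjusted p between 0.064 and 0.314), and with at least 10 reads per clonotype, where the change shrank to -0.26 (edgeR adjusted p = 0.631). TMM and DESeq2 scaling moved the median of all genes in this comparison up by 0.46 and 0.53 on the log2 scale.

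Between WT B-1a and WT B-2, 0 of the 10 genes were called by edgeR, where 3.57% of all genes tested were called. DESeq2 also called 0 of them, and 2 had an unadjusted p under 0.05 with edgeR, namely IGKV12-38 and IGKV12-89. IGKV12-38 had 0.138% and 0.330% of the clonotypes in WT B-1a and 0.705% and 0.848% in WT B-2 (log2 fold change -1.73 with an SE of 0.57, adjusted p = 0.103 by edgeR). These values did not overlap, and the difference passed in 6 of 18 alternatives, among them the fits without either Igll1-/- B-1a library. Those libraries are not part of this comparison, so leaving out either changed mainly the spread that all groups share. More of all genes passed in those fits as well. The share of IGKV12-38 in Igll1-/- B-1a was uneven, at 0.175% and 0.519%.

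**Figure D2:**
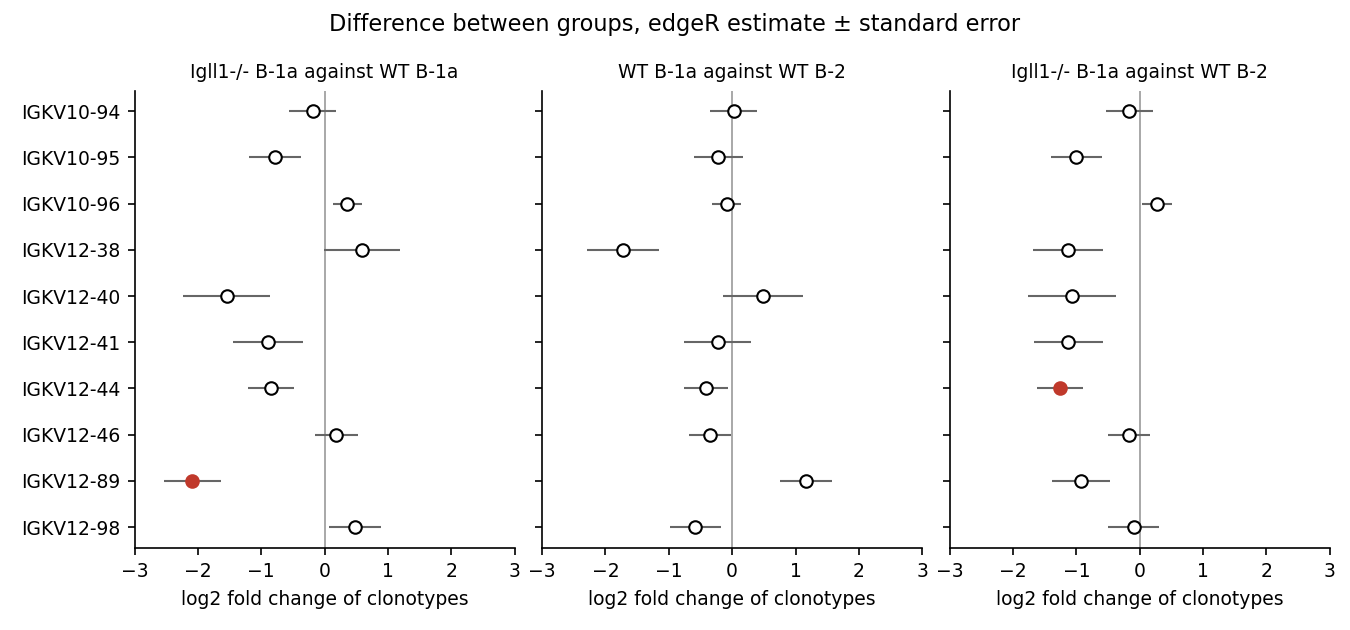
Log2 fold change of clonotypes (horizontal axis) with its standard error for the 10 genes in the 3 comparisons, estimated by edgeR; filled points passed an adjusted p-value of 0.05. IGKV12-89 is filled at -2.09 in the first panel and IGKV12-44 at -1.26 in the third, and no point is filled in the second.

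The remaining genes did not pass in any of the 3 comparisons. IGKV10-95 had 0.636% and 0.919% in WT B-1a, 0.439% and 0.461% in Igll1-/- B-1a, and 0.832% and 0.975% in WT B-2. Its knockout libraries were the lowest of the 6, with a log2 fold change of -1.0 against WT B-2 (SE 0.40, adjusted p = 0.101 by edgeR). IGKV10-94, its near copy, had 0.981% and 1.11%, 0.702% and 1.12%, and 0.925% and 1.13% in the same order, with log2 fold changes between -0.19 and 0.03. These changed sign in some alternatives, including TMM scaling and reads, so that no direction is given for IGKV10-94. IGKV12-46 had 0.995% and 1.18% in WT B-1a, 1.02% and 1.44% in Igll1-/- B-1a, and 1.20% and 1.57% in WT B-2, so that the knockout libraries overlapped with both other groups.

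For 4 genes the replicates of a group differed so much that 1 library decides the picture. IGKV12-40 had 1.04% and 0.273% of the clonotypes in WT B-1a, 0.105% and 0.331% in Igll1-/- B-1a, and 0.601% and 0.337% in WT B-2. The lowest of these was 6 of 5701 clonotypes, with a Wilson 95% interval of 0.0482% to 0.229%. IGKV12-41 had 0.816% and 1.16%, 0.193% and 0.850%, and 1.13% and 1.18%, so that Igll1-/- B-1a replicate 1 alone was far below the rest. Without Igll1-/- B-1a replicate 2 the knockout group is a single library, whose spread is then assumed to be that of the other groups. In that fit IGKV12-41 passed against WT B-1a at -2.35 (edgeR adjusted p = 2.1e-04) and against WT B-2 at -2.58 (3.0e-05), and IGKV12-40 passed at -2.62 (0.0042) and -2.14 (0.019). In the opposite direction, IGKV12-98 had 0.774% and 0.776% in WT B-1a, 1.46% and 0.720% in Igll1-/- B-1a, and 1.02% and 1.30% in WT B-2. In the same fit it passed against WT B-1a at 0.91 (edgeR adjusted p = 0.032), as did IGKV10-96 at 0.64 (0.0043). All 4 log2 fold changes between the B-1a groups missed the threshold with both knockout libraries, at -1.55 for IGKV12-40, -0.90 for IGKV12-41, 0.48 for IGKV12-98 and 0.36 for IGKV10-96 (edgeR adjusted p between 0.158 and 0.446).

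Over the 10 genes the median log2 fold change was -0.49 in Igll1-/- against WT B-1a, beside -0.17 over all 84 genes tested. It was -0.22 beside -0.22 in WT B-1a against WT B-2, and -0.96 beside -0.49 in Igll1-/- B-1a against WT B-2. The 3 comparisons share libraries, so these values are not independent of each other.

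In the gene order of the RefSeq annotation of GRCm38.p6, in which all 10 genes were found by name, IGKV12-38 to IGKV12-46 lie on the side of the *Igk* locus nearer to the J genes, with 37 to 45 *Igkv* genes between each of them and the J genes. IGKV12-89, the 3 IGKV10 genes and IGKV12-98 lie farther out, with 87 to 96 between. The 3 IGKV10 genes follow each other directly. Of 13 further genes tested that carry the neighbouring numbers, 4 were called between Igll1-/- and WT B-1a. Higher in the knockout cells were IGKV5-39, at a log2 fold change of 1.41, and a gene beyond IGKV12-98, at 1.47, and IGKV4-91 and IGKV7-33 were lower, at -1.08 and -2.53 (edgeR adjusted p between 3.4e-04 and 0.035). Called neighbours thus lay in both directions.

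Across the 6 libraries, the genes whose log2 share ran most like that of IGKV10-96 were IGKV4-60 (Pearson's r = 0.89), IGKV5-48 (0.86) and IGKV4-80 (0.79). For IGKV12-46, the most frequent IGKV12 gene by mean share, they were IGKV12-38 (0.88), IGKV8-27 (0.81) and IGKV9-120 (0.78). These are descriptions over 6 libraries that share their totals and groups.

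As the template was genomic DNA, rearrangements that cannot give a protein were sequenced too. Between 85.6% and 100.0% of the clonotypes of each of the 10 genes were productive in each library, and at least 97.3% of the reads. Pooled over the libraries, the productive share ranged from 88.8% in IGKV10-96 to 98.6% in IGKV12-38, with a median of 94.7% over the 10 genes beside 91.6% over 65 other *Igkv* genes with at least 100 clonotypes. IGKV12-40 is marked as a pseudogene in the annotation and its allele carries the mark P in the tables, and 195 of its 204 clonotypes (95.6%) were listed as productive. That label describes the sequenced product of 100 to 280 bp only, so the pseudogene mark was not tested.

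The group by productivity interaction of edgeR's quasi-likelihood test was called for 0 of the 10 genes in each comparison. Over all 84 genes, 3.57% were called in Igll1-/- against WT B-1a, 1.19% in WT B-1a against WT B-2 and 1.19% in Igll1-/- B-1a against WT B-2. At an unadjusted p under 0.05, there were 0, 0 and 1 of the 10, the last being IGKV12-41, whose productive share was 90.9% and 89.8% in Igll1-/- B-1a and 96.9% and 96.1% in WT B-2 (edgeR adjusted p = 0.499). No other tool was run on this share.

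The J gene joined to each V gene differed between the 10 genes. Over all *Igkv* genes, 19.99% to 28.8% of the clonotypes of a library used IGKJ1 and 46.6% to 52.3% used IGKJ5. IGKV10-96 used IGKJ1 in 43.2% to 52.2% of its clonotypes and IGKJ5 in 20.6% to 34.7%. IGKV12-89 used IGKJ5 in 14.8% ± 5.6 (SD, n = 2) of its clonotypes in WT B-1a, the lowest of the 10 genes there, and IGKV12-40 in 55.7% ± 19.3, the highest. The lowest in Igll1-/- B-1a was IGKV10-96, at 20.6%, close to IGKV12-89, at 22.0% ± 7.5, and the highest IGKV12-38. IGKJ4 joined at most 4 clonotypes of any gene in a library, and IGKJ3, which is not functional in mice, at most 1.

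V-J pairs were then compared in the same way over 202 pairs, of which 29 belonged to the 10 genes. Between Igll1-/- and WT B-1a, 1 of the 29 was called, where 10.4% of all pairs were called and 6.93% as lower. This pair was IGKV12-89 with IGKJ2, with 25 and 22 clonotypes in WT B-1a, 3 and 2 in Igll1-/- B-1a, and 8 and 7 in WT B-2, which differed between the B-1a groups by -3.0 on the log2 scale (SE 0.56, adjusted p = 0.0078 by edgeR). It was called in all 6 alternatives in which it could be tested. However, the pair reached the 10 clonotypes of the filter only in WT B-1a, the group where it was high. It could therefore not be tested without either WT B-1a library, and the 6 alternatives do not show how far the call depends on 1 of them. Joined to IGKJ1, the same gene had 26 and 19 clonotypes in WT B-1a against 5 and 7 in the knockout (log2 fold change -1.72, edgeR adjusted p = 0.060). Joined to IGKJ5, it had 12 and 5 against 3 and 2 (log2 fold change -1.55, edgeR adjusted p = 0.205). Of the 3 J genes tested with IGKV12-89, 1 thus passed.

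Between Igll1-/- B-1a and WT B-2, 3 of the 29 pairs were called, all lower, where 12.4% of all pairs were called and 7.92% as lower. IGKV12-38 with IGKJ1 had 0 and 2 clonotypes in Igll1-/- B-1a, 20 and 24 in WT B-2, and 4 and 4 in WT B-1a, and with IGKJ2 it had 1 and 2, 20 and 24, and 2 and 6. The log2 fold changes against WT B-2 were -3.88 (standard error 0.73) and -3.34 (standard error 0.66), both with an edgeR adjusted p = 0.011. With IGKJ5, by contrast, IGKV12-38 had 9 and 32 clonotypes in Igll1-/- B-1a beside 21 and 24 in WT B-2. IGKJ5 thus took 89.4% ± 0.8 (SD, n = 2) of the IGKV12-38 clonotypes in Igll1-/- B-1a, 48.3% ± 11.7 in WT B-1a and 33.7% ± 1.1 in WT B-2. These shares rest on few clonotypes, with 9 of 10 and 32 of 36 in Igll1-/- B-1a and 4 of 10 and 13 of 23 in WT B-1a. In Igll1-/- B-1a, 3 of the 10 in replicate 1 and 23 of the 36 in replicate 2 were 1 residue away from the largest IGKV12-38 clonotype. Each of those had few reads, and their part in the J share was not tested. Both calls fell just outside the threshold without either WT B-1a library. However, the pairs of IGKV12-38 with IGKJ1 and IGKJ2 reached the clonotype filter only in WT B-2, the group where they were high. They could therefore not be tested without either WT B-2 library. The alternatives thus do not show how far these calls depend on 1 of those libraries.

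The other called pair was IGKV12-44 with IGKJ1, with 6 and 7 clonotypes in Igll1-/- B-1a, 36 and 35 in WT B-2, and 17 and 22 in WT B-1a (log2 fold change -1.98 against WT B-2 with an SE of 0.49, adjusted p = 0.027 by edgeR). It was called in 3 of 9 alternatives and lost, among others, without either WT B-1a or either WT B-2 library (edgeR adjusted p between 0.059 and 0.247) and with at least 2 reads per clonotype (0.082). Between WT B-1a and WT B-2, 0 of the 29 pairs were called by edgeR, where 2.97% of all pairs were called, and 3 had an unadjusted p under 0.05. These were IGKV12-89 with IGKJ2 (log2 fold change 1.91, edgeR adjusted p = 0.054) and IGKV12-38 with IGKJ1 and with IGKJ2 (-2.14 each, edgeR adjusted p = 0.067). These pairs passed in the fits without either Igll1-/- B-1a library. Those libraries are not part of this comparison, and more of all pairs passed in those fits as well. Each of these pairs reached the clonotype filter only in the group where it was high. That group was WT B-1a for IGKV12-89 with IGKJ2 and WT B-2 for both pairs of IGKV12-38. The pairs were thus tested only because of the counts in that group, so no conclusion is drawn from these passes.

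**Figure D3:**
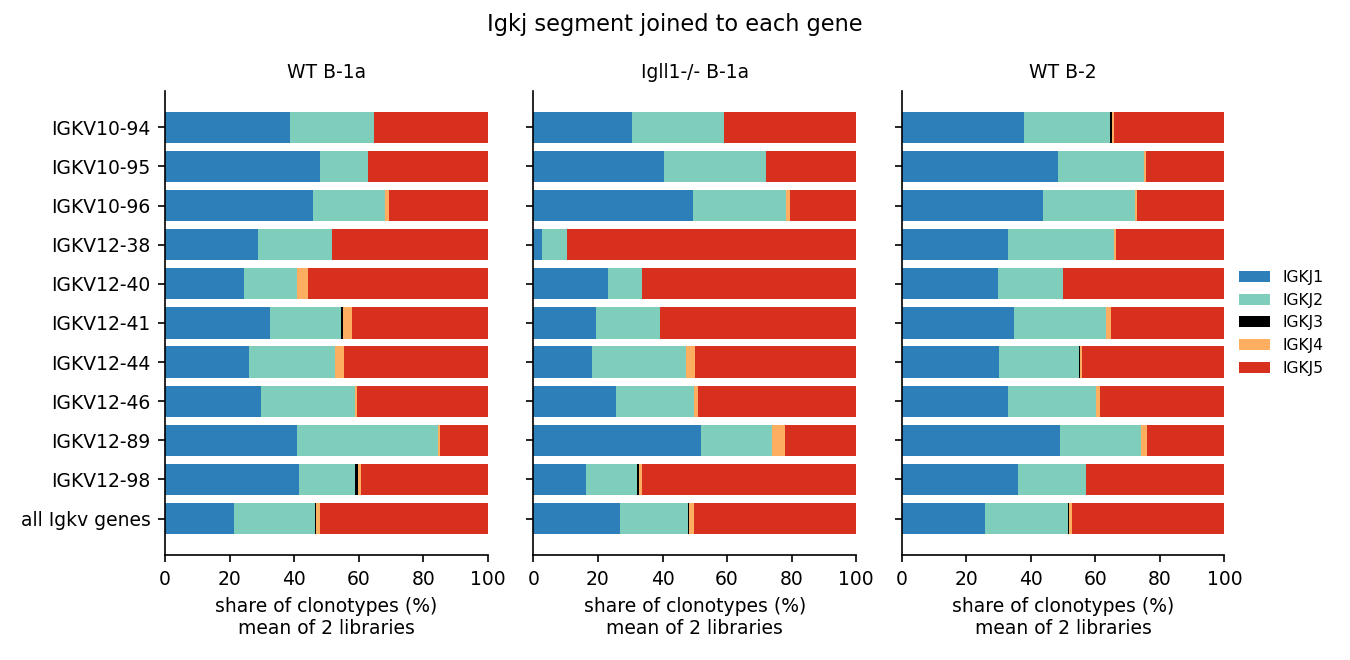
J gene of the clonotypes (%, horizontal axis, mean of 2 libraries) for each of the 10 genes and for all Igkv genes in the 3 groups. IGKV12-38 is almost filled by IGKJ5 in Igll1-/- B-1a (89.4%) but not in WT B-2 (33.7%), and IGKV12-89 has its largest IGKJ2 part in WT B-1a.

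Reads were spread over the clonotypes of a gene very unevenly, and the largest clonotype of a gene held from 19.2% to 92.4% of its reads. In WT B-2 this share was close in both libraries for most genes, as in IGKV10-95, where QQYSKLPWT with IGKJ1 held 19.2% of the reads in each. IGKV12-40 was the exception there, with 54.1% in QHYYGTPLT with IGKJ5 in replicate 1 and 20.3% in QHYYGTPPT with IGKJ5 in replicate 2.

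In the B-1a libraries single clonotypes held most reads of some genes. In WT B-1a replicate 1 QHYYGTPLT of IGKV12-40 with IGKJ5 had 1931 of the 2207 reads of its gene (87.5%), beside 152 of 300 in replicate 2. In the same library 30 of the 75 IGKV12-40 clonotypes were 1 residue from this clonotype. After merging, IGKV12-40 had 39 and 13 clonotypes in the WT B-1a libraries, at 1.38% and 0.458% of the merged clonotypes, so replicate 1 remained the higher. The part of the dominant rearrangement in the high clonotype share was not tested.

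In Igll1-/- B-1a replicate 1, QQGNTLWT of IGKV10-96 with IGKJ1, which lacks the proline of the common CDR3, had 3848 of 8873 reads. The same CDR3 had 28 reads in Igll1-/- B-1a replicate 2 and 116 to 384 in the 4 wild-type libraries, so this was a feature of 1 library. As a result, the 9-residue CDR3 took 52.6% of the IGKV10-96 reads there and 83.9% to 88.9% in the others. In the same library QQLYSTPLT of IGKV12-98 with IGKJ5 had 2338 of 2725 reads (85.8%), and 62 of the 83 IGKV12-98 clonotypes with a single J gene used IGKJ5.

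In Igll1-/- B-1a replicate 2, QHYYGTPLT again held 342 of the 382 reads of IGKV12-40 (89.5%). Others were QQYSKLPYT of IGKV10-94 with IGKJ2, with 4348 of 6903 reads (63.0%), QHFWGTPLT of IGKV12-46 with IGKJ5, with 2108 of 3763 (56.0%), and KQAYDVPLT of IGKV12-38 with IGKJ5, with 733 of 793 (92.4%). QQLYSTPLT, QHFWGTPLT and KQAYDVPLT led their genes in both knockout libraries but at different shares, whereas QQGNTLWT and QQYSKLPYT did so in 1 of them. Leading was not particular to the knockout for most of these. QQLYSTPLT and KQAYDVPLT also led in WT B-1a replicate 2. QQLYSTPLT, QHFWGTPLT and, in IGKV10-94, QQYSKLPYT also led in both WT B-2 libraries. Each of these CDR3 sequences was found in all 6 libraries. IGKV12-89, the called gene, was led by a different clonotype in each B-1a library, namely QNVLSTPPT with IGKJ2 (481 reads) and QNVLSTPYT with IGKJ2 (461 reads) in WT B-1a, and QNVLSTPLT with IGKJ5 (98 reads) and QNVLSTPPT with IGKJ1 (36 reads) in Igll1-/- B-1a.

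**Figure D4:**
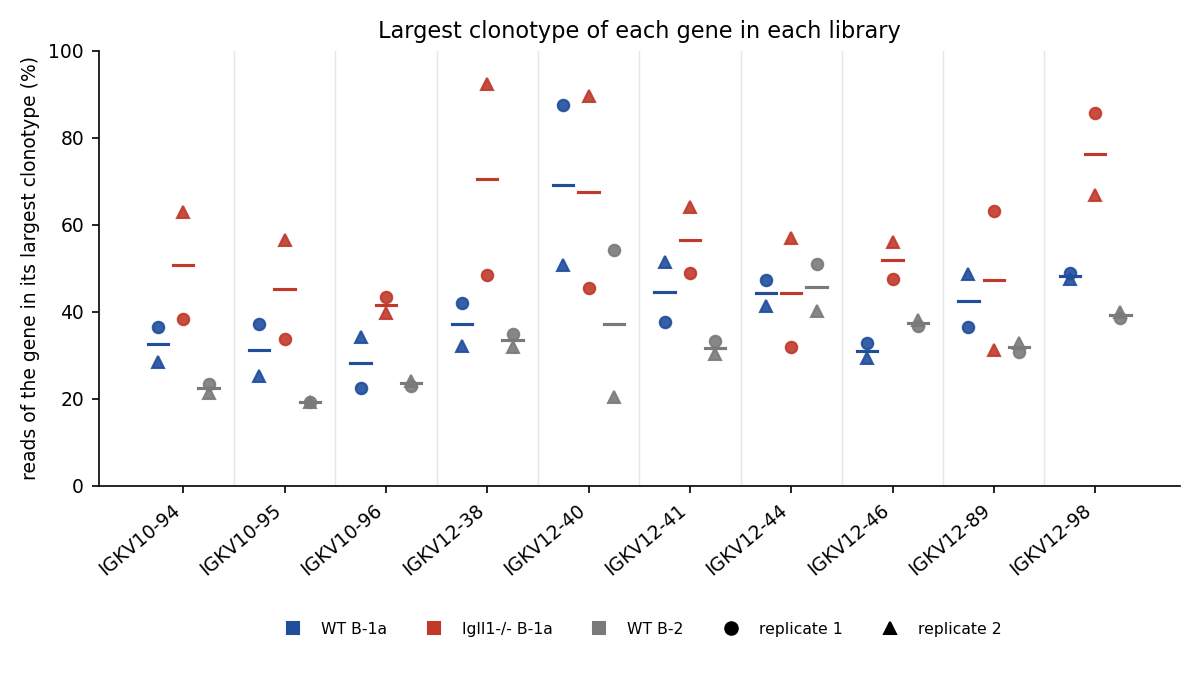
Share of a gene's reads in its largest clonotype (%, vertical axis) in each library; colours are groups, circles and triangles are replicates 1 and 2, and bars are means of 2 libraries. The highest points are IGKV12-38 (92.4%) and IGKV12-40 (89.5%) in Igll1-/- B-1a replicate 2 and IGKV12-40 (87.5%) in WT B-1a replicate 1, while WT B-2 points lie between 19.2% and 54.1%.

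Few distinct clonotypes of the 10 genes were found in all 6 libraries, and the share of reads they held differed between the genes. For IGKV10-96 there were 36 of 578 (6.23%), which held 86.7% to 93.8% of its reads in a library. IGKV12-44 followed with 9 of 262 and 88.0% to 94.5%, and IGKV12-46 with 10 of 303 and 87.6% to 93.4%. Over all *Igkv* genes it was 931 of 24046 (3.87%), with 78.7% to 88.2% of the reads. IGKV12-38 had only KQAYDVPLT with IGKJ5, which held 18.9% and 23.0% of its reads in WT B-2 and 92.4% in Igll1-/- B-1a replicate 2. The share also varied widely in IGKV12-40, with 27.3% to 89.8%, in IGKV12-98, with 44.4% to 93.2%, in IGKV12-89, with 45.95% to 92.3%, and in IGKV10-95, with 63.2% to 93.8%. Many of the 36 of IGKV10-96 had few reads, down to 9 over the 6 libraries. Among them were forms of QQGNTLPWT with IGKJ1 in which a stop codon replaced 1 residue, with 12 and 11 reads. Merging near-identical clonotypes took away 57.9% of the clonotypes of the 10 genes, beside 60.7% over all *Igk* clonotypes. Whether clonotypes with few reads in a library are errors or came from another library was not tested.

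IGKV10-94 and IGKV10-95 had the same 6 clonotypes in all 6 libraries, by CDR3 and J gene, and 98.05% of the IGKV10-95 reads lay in a CDR3 and J gene also listed for IGKV10-94. QQYSKLPYT with IGKJ2 had 4348 reads in IGKV10-94 and 380 in IGKV10-95 in Igll1-/- B-1a replicate 2, the highest value of the 6 libraries in both genes, and 272 and 9 in replicate 1, the lowest in both. The ratio between the genes was not fixed, as it ran from 0.917 to 80.3 over these 6 clonotypes and the libraries. Since the genes have the same stem, how reads were divided between them cannot be told from the CDR3, and their separate values are uncertain.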

How the data were processed

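The authors lysed sorted cells, amplified *Igk* rearrangements from the DNA by PCR, and sequenced them on an Illumina instrument (MiSeq per the labels). They assigned V and J genes with IMGT tools and deposited 1 table per library, in which each clonotype has its count of reads and 1 percent identity to a germline allele. The identity describes 1 sequence per clonotype and was not used. The genome build was not given in the sources used here.

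Every clonotype added 1 to its V gene, whatever its reads. Those listed with several V genes stayed in the library total only. Genes or V-J pairs that reached 10 clonotypes in 2 or more libraries were tested with edgeR 4.0.16 in R 4.3.3 (quasi-likelihood test over all 6 libraries, library size the total of clonotypes, Benjamini-Hochberg adjustment over all genes or pairs). The productive share was tested as a group by productivity interaction with a block per library. DESeq2 1.42.0 was an alternative. Tables were made in Python 3.11.15 with pandas 2.3.3 and SciPy 1.17.1, and the tests were checked on simulated counts. The simulated counts of genes and pairs had the same spread in every group, whereas the replicates here varied most in Igll1-/- B-1a. The check therefore does not cover that unequal spread. The labels do not say whether replicates came from separate mice, so p-values measure only the spread between these libraries. All 10 genes were named, with the 3 genes most like the leading gene of each family (Pearson's r of log2 of the share plus 0.5 clonotypes), called neighbours, and largest and shared clonotypes. The genes and lists were chosen with earlier results of these data known.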

Additional observations from a re-analysis of the deposited data

How the results depend on the processing

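With 2 libraries per group, counts of calls over all genes moved with most choices. The replicate number as a block (replicate block) gave 17, 8 and 18 called genes in Igll1-/- against WT B-1a, WT B-1a against WT B-2 and Igll1-/- B-1a against WT B-2, beside 15, 3 and 19 without it. For V-J pairs it gave 18, 3 and 13 beside 21, 6 and 25, and for the productive share 0, 1 and 0 beside 3, 1 and 1. Deviations of same-numbered libraries correlated at 0.03, 0.01 and -0.19 across genes. These values showed no deviation shared by number, but they cannot tell whether same-numbered libraries have a common origin. The crossed pairing, chosen after seeing the data, gave 13, 3 and 12 called genes. Of the 10 genes, IGKV12-38 passed under the block in WT B-1a against WT B-2 (-1.84, edgeR adjusted p = 0.020).

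In the order of comparisons above, called genes were 14, 4 and 9 with DESeq2, 16, 3 and 8 with TMM scaling, 14, 3 and 10 with at least 10 reads per clonotype, 15, 5 and 26 with at least 2, 17, 6 and 17 after merging near-identical clonotypes, 18, 11 and 23 without a filter, 8, 3 and 8 for unproductive clonotypes, 9, 3 and 9 with the library naming series as a block, and 4, 1 and 5 in the libraries of 1 naming series, chosen after seeing the data. Leaving out 1 library, which leaves its group with a single library assumed to vary like the others, gave 7 to 31, 1 to 12 and 6 to 39. Called pairs were 9, 2 and 8 with at least 10 reads, 12, 3 and 18 with at least 2, and 1 to 41, 0 to 27 and 0 to 47 without 1 library. Productive shares called were 0 in each comparison with at least 2 or at least 10 reads, and 0 to 2, 0 to 1 and 0 to 2 without 1 library. The cause was not tested.

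Signs turned only in changes that missed the threshold. In Igll1-/- against WT B-1a, IGKV10-94 became 0.38 by reads, 0.074 with TMM and 0.037 with DESeq2, IGKV12-38 -0.18 and IGKV12-46 -0.024 after merging, and IGKV12-44 0.13 with at least 10 reads. In WT B-1a against WT B-2, IGKV10-94 became -0.12 with at least 2 reads, -0.12 by reads and -0.026 in 1 naming series, IGKV10-95 0.079 with DESeq2, IGKV10-96 0.12 with TMM, 0.21 with DESeq2, 0.0061 for productive clonotypes and 0.059 in 1 naming series, IGKV12-40 -0.30 in 1 naming series, and IGKV12-41 0.069 with DESeq2. In Igll1-/- B-1a against WT B-2, IGKV10-94 became 0.27 by reads, 0.30 with TMM and 0.36 with DESeq2, IGKV10-96 -0.26 for unproductive clonotypes, IGKV12-46 0.23 with at least 10 reads, 0.30 with TMM and 0.36 with DESeq2, and IGKV12-98 0.20 with at least 2 and 0.34 with at least 10 reads, 0.36 with TMM, 0.46 with DESeq2 and 0.18 after merging. Without 1 library, values ran in Igll1-/- against WT B-1a from -0.57 to 0.11 for IGKV10-94, -0.41 to 1.34 for IGKV12-38, -0.094 to 0.41 for IGKV12-46 and -0.10 to 0.91 for IGKV12-98. In WT B-1a against WT B-2 they ran from -0.11 to 0.17 for IGKV10-94, -0.51 to 0.024 for IGKV10-95, -0.20 to 0.018 for IGKV10-96, -0.78 to 1.14 for IGKV12-40 and -0.51 to 0.0060 for IGKV12-41. In Igll1-/- B-1a against WT B-2 they ran from -0.55 to 0.13 for IGKV10-94, -0.070 to 0.55 for IGKV10-96, -0.44 to 0.057 for IGKV12-46 and -0.68 to 0.33 for IGKV12-98.

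The IGKV12 family kept its order of groups by reads (3.84%, 3.00% and 5.22% in WT B-1a, Igll1-/- B-1a and WT B-2) and with at least 10 reads per clonotype (4.93%, 4.43% and 5.89%).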
